A study of Mus musculus with 17 samples.

Results

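Microglia are the resident macrophages of the brain, and here they were the nuclei to which the authors had given the predicted cell type Microglia and no doublet call. Of 284074 nuclei in the deposited table, 8444 carried that label, 285 of them were called doublets and 8159 were kept. They made up 2.87% of all nuclei and 3.45% of the 236316 nuclei that were not called doublets. The labels rest on expression, so the genes that mark microglia are given as a description and are no test.

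Microglia arise from yolk sac precursors, settle in the brain before birth and renew themselves there. They depend on the receptor Csf1r for survival, sense neuronal signals and nucleotides through Cx3cr1 and P2ry12, and take up debris, lipoproteins and antibody-coated material. Like other macrophages they carry Fc receptors, which bind the constant part of antibodies. Malat1 is an abundant nuclear noncoding RNA, and an antisense oligonucleotide (ASO) of the kind that recruits RNase H lowers such an RNA by having it cut.

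The RNA of single nuclei was profiled in posterior brain from 17 mice, all labelled as female, 2.3 months old and homozygous for a knock-in of the human transferrin receptor (TfR). Every animal was dosed into a vein 4 times over 24 days, and its tissue was collected 72 hours after the final one. The 4 saline mice were the controls; their dose label also reads 50 mg per kg, which the labels do not explain for saline. A further 4 mice received free Malat1 ASO at 2 mg per kg, 6 received anti-TfR:Malat1, an ASO joined to an antibody against TfR, at 50 mg per kg, and 3 received OTV:Malat1, in which the ASO is carried by a TfR-binding oligonucleotide transport vehicle, at 50 mg per kg. The knock-in was shared by the saline controls, so no animal had only mouse TfR. The design compared how far each compound lowered Malat1, and the microglia give that comparison for the resident macrophages.

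Each mouse gave 345 to 698 microglia with 309626 to 759439 UMIs in all (unique molecular identifiers, each standing for 1 counted RNA molecule). The median was 992 UMIs and 763 genes per microglial nucleus, and by animal the median ran from 812 to 1229 UMIs, with 870.5, 1034 and 812 in the OTV:Malat1 mice. Barcode sharing was low, with 7 of 8152 different barcode sequences found in microglia of more than 1 animal. The authors' metadata named 4 batches, whose meaning the sources used here do not give. Each batch held 1 saline mouse, 1 Malat1 ASO mouse and at least 1 anti-TfR:Malat1 mouse, and batch 1 held no OTV:Malat1 mouse. One library stood apart: Malat1 ASO replicate 1, labelled female, had 0 UMIs of Xist, the RNA that coats the inactive X chromosome, and 0 of its antisense partner Tsix in its microglia. The microglia of the other 16 mice had 634 to 1622 UMIs of Xist and 42 to 149 of Tsix. Over all nuclei of that library Xist had 35 UMIs, against 52666 to 94769 in the others, and 4 Y-linked genes together had 12 UMIs, against 7 to 19 in the others. The main results of the Malat1 ASO group are therefore given with and without it.

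The 3 marker genes were high in the labelled nuclei. Levels are in CPM, a gene's UMIs over the total of the nuclei summed, scaled to 1e6. Csf1r, the receptor for CSF1 and IL-34, stood at 790 CPM in microglia, 1.61 in neurons and 1.85 in oligodendrocytes. Cx3cr1, the receptor for the neuronal chemokine fractalkine, stood at 1050 CPM in microglia and 8.55 in neurons. P2ry12, an ADP receptor that steers microglial processes, stood at 1308 CPM in microglia and 42.3 in neurons. All 3 were also high in perivascular macrophages, at 596, 270.1 and 527 CPM in that order. Nuclei differ in depth, so each was also thinned at random to 500 UMIs, which every microglial nucleus had. At that depth 32.8% of microglia had a UMI of Csf1r, 40.2% one of Cx3cr1 and 46.3% one of P2ry12, against 0.224%, 0.593% and 2.30% of neurons. Without thinning the shares were 54.2%, 62.7% and 68.4% of microglia and 0.636%, 3.59% and 16% of neurons, whose median depth was 4162 UMIs.

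The promoters of 2 of these markers are shown because both genes are among the markers that describe these nuclei. Each run is a RefSeq window of GRCm38.p6, from 250 bases before to 50 bases after the annotated start, written 5′ to 3′ on the strand of the gene. Capitals mark the letters AGGAAG, a core motif of PU.1, where they occur on either strand. The core that ETS factors share is the shorter GGAA, which was not marked by itself and occurs in lower case in both windows. P2ry12 is at chr3:59262936-59263235 on the minus strand and Cx3cr1 at chr9:120068247-120068546 on the minus strand.
P2ry12: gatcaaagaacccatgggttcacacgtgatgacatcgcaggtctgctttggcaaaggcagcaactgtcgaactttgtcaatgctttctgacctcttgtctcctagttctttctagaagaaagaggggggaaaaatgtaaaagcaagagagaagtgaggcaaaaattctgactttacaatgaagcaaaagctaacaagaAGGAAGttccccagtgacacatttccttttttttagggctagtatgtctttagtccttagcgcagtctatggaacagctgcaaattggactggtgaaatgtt
Cx3cr1: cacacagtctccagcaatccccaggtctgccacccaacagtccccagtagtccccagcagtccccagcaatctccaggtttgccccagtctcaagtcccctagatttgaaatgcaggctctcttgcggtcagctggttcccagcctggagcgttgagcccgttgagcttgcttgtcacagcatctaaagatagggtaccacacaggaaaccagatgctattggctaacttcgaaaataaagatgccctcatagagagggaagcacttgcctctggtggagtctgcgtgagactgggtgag
Of 13 genes looked up, the 3 markers and the 10 leading genes below, 8 had a window that was searched. The longer motif GAGGAAGT, searched on both strands, occurred in 0 of the 8 and in 3.2% of all 32851 windows. The shorter AGGAAG, part of the longer one and read on both strands too, was searched after that result was known and occurred in 4 of the 8 and in 35.4% of all windows. Those 4 were P2ry12, Itgam, Ly86 and Tmem273.

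Siglech, a sialic acid-binding lectin of microglia, led the genes that set microglia apart, at 1170 CPM against 1.46 in all other nuclei, and ran from 992 to 1364 CPM over the 17 mice. The other leading genes of 100 CPM or more, by their ratio to other nuclei, were Gm2629, Bin2, Itgam, Ly86, Gm50035, Abi3, Tmem273, Gm47754 and Gm10790. Itgam, the alpha chain of complement receptor 3, stood at 473 CPM (lowest mouse 407.8, highest 523.2). Perivascular macrophages held 198 CPM of Siglech, 167 of Itgam and 450.2 of Gm10790. Ly86, a partner of the Toll-like receptor relative RP105, stood at 1308 CPM in microglia and 740 CPM in perivascular macrophages. Abi3, a regulator of actin found in microglia, stood at 269 CPM in microglia and 36.0 in perivascular macrophages. Gm47754 is annotated as a long intergenic noncoding RNA on chromosome 13 and stood at 107 CPM.

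Markers of other cells were low but not absent. Of the perivascular macrophage genes, Mrc1 stood at 10.9 CPM in microglia and 3063 in the 607 perivascular macrophages, F13a1 at 0.119 and 3780, and Cbr2 at 0 and 65.5. Of the 5 monocyte and neutrophil genes in the table, Ly6c2, S100a9 and Retnlg had no UMI in any microglial nucleus, while the monocyte receptor gene Ccr2 had 48 and Plac8 12. Of the 7 lymphocyte genes in the table, Cd3d, Trac and Nkg7 had none, Skap1 had 14, and Themis, Ms4a1 and Cd79a had 2 to 3 each. RNA of neurons and oligodendrocytes was present: Meg3, a neuronal RNA, stood at 568 CPM and the synaptic gene Snap25 at 221. The 8 oligodendrocyte markers summed to 579 to 915 CPM for saline mice, 741 to 853 for Malat1 ASO mice, 451 to 852 for anti-TfR:Malat1 mice, and 869, 1686 and 630 for OTV:Malat1 replicates 1 to 3. OTV:Malat1 replicate 2 was thus the highest of all. The 8 neuronal markers summed to 957 to 1541 CPM for saline mice, 901 to 2563 for Malat1 ASO, 1265 to 1806 for anti-TfR:Malat1 and 1262 to 1809 for OTV:Malat1. Malat1 ASO replicate 4, at 2563, was the highest of all 17 mice.

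Nearly all microglia, 8089 of 8159, lay in the authors' cluster 11. The other 70 lay in cluster 18, which also held 282 of the 285 doublet-called nuclei with the microglia label. Those 70 had a median of 1510 UMIs against 989 in cluster 11, less Csf1r (411.5 against 795 CPM) and far more RNA of oligodendrocyte genes. Mbp, a myelin gene, stood at 2314 CPM in them against 103 in cluster 11. No mouse had more than 11 of them, and they were kept, as the labels place them.

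Malat1 was the transcript the compounds were directed at. It lies on the minus strand of chr19:5795690-5802672 (GENCODE M21, GRCm38), where it is annotated as a long intergenic noncoding RNA. In microglia of the saline mice it took 6.09%, 5.13%, 5.22% and 3.80% of all UMIs, replicates 1 to 4 in order. In the Malat1 ASO mice it took 5.28%, 5.09%, 5.74% and 4.25%. In the anti-TfR:Malat1 mice it ran from 3.91% to 5.20% with a median of 4.38%, and in the OTV:Malat1 mice it took 3.68%, 3.40% and 3.12%. Every OTV:Malat1 mouse lay below every mouse of the other 3 groups, while the other 3 groups overlapped. The lowest control was saline replicate 4, and the lowest OTV:Malat1 mouse was of the same batch.

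The mean share of the OTV:Malat1 mice was 3.40% ± 0.28 (SD, n = 3). It was 4.47% ± 0.54 (SD, n = 6) for anti-TfR:Malat1, 5.09% ± 0.62 (SD, n = 4) for Malat1 ASO and 5.06% ± 0.95 (SD, n = 4) for saline. Of the saline mean this left 101% with Malat1 ASO, 88.4% with anti-TfR:Malat1 and 67.2% with OTV:Malat1. The plot of Malat1 by animal shows these values.

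**Figure D1:**
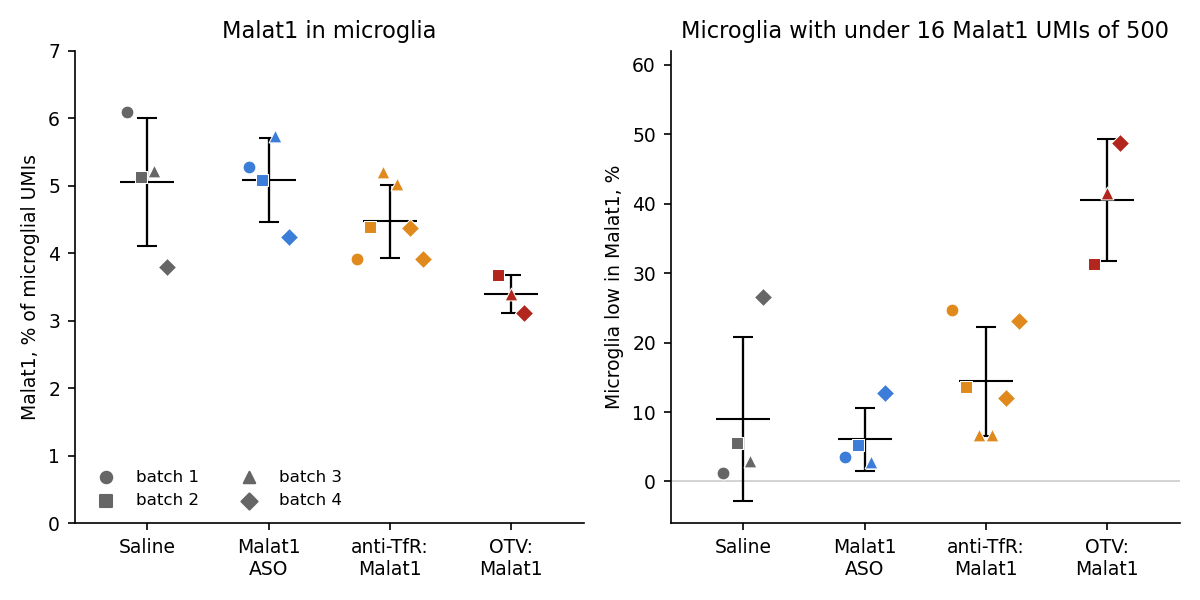
Left, Malat1 as a percentage of all UMIs in the microglia of each mouse; right, the percentage of microglia with fewer than 16 Malat1 UMIs after thinning to 500 UMIs. Points are mice, their shapes are batches, and bars are the mean ± SD of each group; the 3 OTV:Malat1 mice lie at 3.12% to 3.68% on the left and at 31.3% to 48.8% on the right.

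These differences were tested by edgeR's quasi-likelihood test on UMIs summed per mouse, with Benjamini-Hochberg adjustment over all 8814 genes tested and a threshold of 0.05. In OTV:Malat1 against saline the log2 change of Malat1 was -0.61 (SE 0.12), with an unadjusted p of 2.16e-05 and an adjusted p of 0.190, so the threshold was not passed. It was passed under several of the alternatives: adjusted p was 7.58e-11 with no filter on low counts (log2 change -0.64), 9.82e-04 with the batch as a block (-0.58), 0.0462 with doublets kept (-0.71), 0.0265 with nuclei of 1000 or more UMIs (-0.65), 0.0111 with prediction scores of 0.8 or more (-0.59) and 0.00326 without saline replicate 4 (-0.72). Of the 285 doublets so kept, 282 lay in cluster 18, whose other microglia held much oligodendrocyte RNA. The part of that RNA in the change with doublets kept was not tested. The threshold was not passed under other alternatives: adjusted p was 0.343 to 0.9996 with each of the other 6 mice left out in turn, 0.427 with only those 2 groups fitted, 0.330 in the largest cluster alone and 0.228 in DESeq2. Against anti-TfR:Malat1 the log2 change in OTV:Malat1 was -0.43 (SE 0.11; adjusted p = 0.961), and against Malat1 ASO it was -0.63 (SE 0.12; adjusted p = 0.148), or -0.61 (adjusted p = 0.425) without Malat1 ASO replicate 1. In anti-TfR:Malat1 the log2 change was -0.19 (SE 0.10) against saline and -0.20 (SE 0.10) against Malat1 ASO, the latter -0.19 without replicate 1 of that group. In Malat1 ASO against saline it was 0.01 (SE 0.11), and -0.0013 without replicate 1. These comparisons share control animals, so they are not independent of each other. OTV:Malat1 against Malat1 ASO also passed the threshold under several alternatives, the batch block among them, whose values are given with the processing.

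An exact two-sided permutation test of each mouse's log2(CPM + 1) of Malat1, chosen after seeing the data, gave a difference of -0.56 for OTV:Malat1 against saline with p = 0.0571, the smallest p that 3 against 4 mice allow. For OTV:Malat1 against anti-TfR:Malat1 the difference was -0.39, with an exact permutation p of 0.0238, again the smallest possible, and 0.114 after adjustment over the 6 comparisons of Malat1. Within batches 2, 3 and 4 the OTV:Malat1 mouse lay below the saline mouse each time, by log2 differences of -0.48, -0.62 and -0.28. It also lay below the anti-TfR:Malat1 mice of its batch each time, at -0.25, -0.59 and -0.41. The anti-TfR:Malat1 differences from saline within batches 1 to 4 were -0.64, -0.22, -0.03 and 0.12, which did not share a sign.

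Malat1 was next counted nucleus by nucleus, after thinning each microglial nucleus to 500 UMIs. No nucleus of any mouse was left without Malat1. The median per nucleus was 31, 26, 26 and 18.5 Malat1 UMIs in the saline mice, 27, 26, 28 and 21 with Malat1 ASO, 19 to 26 with anti-TfR:Malat1, and 18, 17 and 16 with OTV:Malat1. In the OTV:Malat1 mice the 10th percentile was 11, 10 and 9 and the 90th percentile was 27, 25 and 23, so that most of their nuclei lay within the range that saline nuclei also covered. The distribution of OTV:Malat1 nuclei had its bulk at lower counts and no group of nuclei at 0. RNA of other cells was present in these nuclei, and its part in their Malat1 was not tested. Nuclei without Malat1 of their own therefore need not appear at 0.

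**Figure D2:**
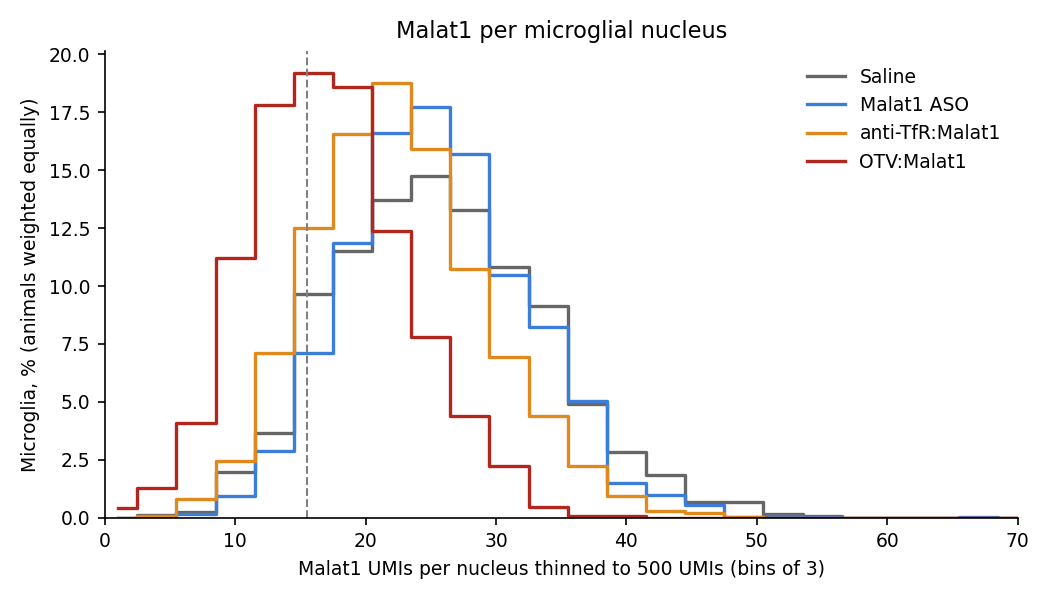
Distribution of Malat1 UMIs per microglial nucleus after thinning to 500 UMIs, in bins of 3, as a percentage of microglia with mice weighted equally within each group. The dashed line marks the limit of 16 UMIs; OTV:Malat1 mice had medians of 16 to 18 UMIs and saline mice of 18.5 to 31.

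A microglial nucleus was called low in Malat1 when it had fewer than 16 of 500 UMIs, the 10th percentile of saline microglia with mice weighted equally. The low share was 1.18%, 5.55%, 2.94% and 26.6% in the saline mice, 3.53%, 5.21%, 2.77% and 12.7% with Malat1 ASO, 6.65% to 24.7% (median 12.8%) with anti-TfR:Malat1, and 31.3%, 41.6% and 48.8% with OTV:Malat1. All OTV:Malat1 mice lay above all others, and saline replicate 4 was by far the highest control. The mean was 40.5% ± 8.81 (SD, n = 3) in OTV:Malat1, 9.06% ± 11.8 (SD, n = 4) for saline and 14.5% ± 7.85 (SD, n = 6) for anti-TfR:Malat1. Against saline the difference was 31.5 percentage points (exact permutation p = 0.0571, the smallest possible). Without saline replicate 4 it was 37.3 points with the limit kept at 16, an alternative chosen after seeing the data, and 51.4 points with the limit reset from the remaining saline mice. Against anti-TfR:Malat1 it was 26.1 points (exact permutation p = 0.0238, and 0.0952 adjusted over 4 comparisons). The anti-TfR:Malat1 mean lay 5.41 points above saline (exact permutation p = 0.371), and without saline replicate 4 it lay 11.2 points above with the limit kept and 18.9 points above with the limit reset (exact permutation p = 0.0238 for both). That difference therefore depended on 1 control mouse. Saline replicate 4 was also the only saline mouse of batch 4, which held 2 anti-TfR:Malat1 mice, so among saline mice, mouse and batch cannot be told apart. The highest low shares with Malat1 ASO (12.7%) and with OTV:Malat1 (48.8%) were also of batch 4. The highest with anti-TfR:Malat1 (24.7%) was of batch 1, and a shift by batch was not tested. Within batches 1 to 4 anti-TfR:Malat1 lay 23.6, 8.09, 3.72 and -9.02 points from saline. The Malat1 ASO mean lay -3.00 points from saline, and -2.15 points without its replicate 1. Without saline replicate 4 it lay 2.84 points from saline with the limit kept and 5.63 with it reset.

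Microglia were then set beside other nuclei of the same mice. The OTV:Malat1 mice kept 67.2% of the saline mean in microglia, 15.4% in oligodendrocytes, 34.7% in astrocytes, 63.4% in perivascular macrophages and 68.4% in neurons. The anti-TfR:Malat1 mice kept 88.4% in microglia, 67.8% in oligodendrocytes, 63.7% in astrocytes, 84.8% in perivascular macrophages and 91.1% in neurons. In saline mice Malat1 took a smaller share in microglia than in oligodendrocytes (10.3% ± 1.80, SD, n = 4) or astrocytes (9.71% ± 2.45, SD, n = 4). In OTV:Malat1 mice it took 1.81%, 1.54% and 1.40% in oligodendrocytes, all below the microglia of the same animal, and 3.58%, 3.34% and 3.20% in astrocytes, close to them.

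**Figure D3:**
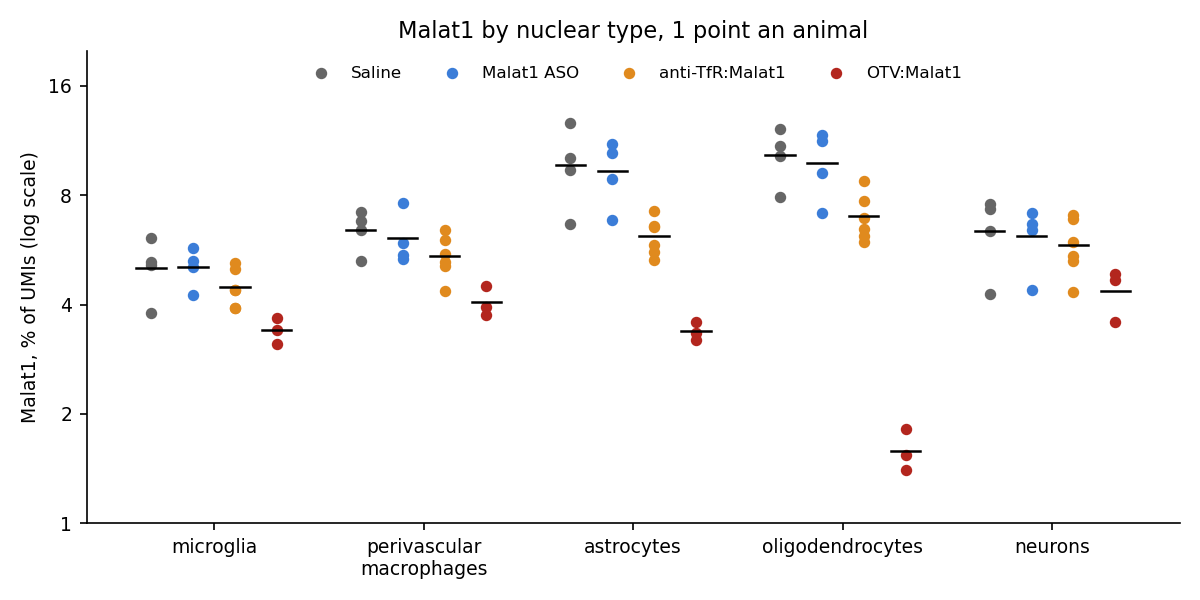
Malat1 as a percentage of UMIs in each nuclear type, on a log scale; each point is a mouse, coloured by group, and black lines are group means. The order of microglia and oligodendrocytes is turned in OTV:Malat1, whose mice lie at 1.40% to 1.81% in oligodendrocytes and at 3.12% to 3.68% in microglia.

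The test of whether microglia responded unlike another type used, for each mouse, the log2(CPM + 1) of Malat1 in microglia minus that in the other type. Against oligodendrocytes this was -1.03 ± 0.03 (SD, n = 4) in saline, -0.64 ± 0.09 (SD, n = 6) after anti-TfR:Malat1 and 1.11 ± 0.07 (SD, n = 3) after OTV:Malat1, with no overlap between these 3 groups. The 4 Malat1 ASO mice, at -1.09, -0.86, -1.03 and -0.75, averaged -0.93 ± 0.16 (SD, n = 4), and their range took in the saline range and met the lower end of the anti-TfR:Malat1 range. The change of the difference was 0.39 in anti-TfR:Malat1 against saline (exact permutation p = 0.00952, adjusted p = 0.0429 over 9 comparisons). It was 2.14 in OTV:Malat1 against saline (exact permutation p = 0.0571, the smallest possible, adjusted p = 0.0857), and against anti-TfR:Malat1 it was 1.75 (exact permutation p = 0.0238, adjusted p = 0.0536). Against astrocytes the difference was -0.92 ± 0.10 in saline, -0.47 ± 0.10 after anti-TfR:Malat1 and 0.01 ± 0.04 after OTV:Malat1. It changed by 0.46 in anti-TfR:Malat1 against saline (exact permutation p = 0.00952, adjusted p = 0.0429). For OTV:Malat1 it lay 0.93 above saline (exact permutation p = 0.0571, adjusted p = 0.0857) and 0.48 above anti-TfR:Malat1 (exact permutation p = 0.0238, adjusted p = 0.0536). With labels moved only within batches the anti-TfR:Malat1 changes from saline were 0.38 against oligodendrocytes and 0.45 against astrocytes. The exact permutation p was then 0.0556 for both types, the smallest that this test allows, so it could not pass the threshold.

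Perivascular macrophages, the macrophages that line brain vessels, are the nuclei most like microglia here, with 23 to 57 of them per mouse. Malat1 in microglia minus that in perivascular macrophages was -0.35 ± 0.15 (SD, n = 4) in saline, -0.28 ± 0.08 (SD, n = 6) after anti-TfR:Malat1 and -0.26 ± 0.20 (SD, n = 3) after OTV:Malat1. These groups overlapped. Against saline the changes were 0.07 for anti-TfR:Malat1 and 0.10 for OTV:Malat1 (exact permutation p = 0.343 and 0.457), and OTV:Malat1 lay 0.03 from anti-TfR:Malat1 (exact permutation p = 0.810). A p of this size does not show that both macrophage types responded alike.

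In the microglia no gene passed the threshold in any comparison of the main edgeR fit, Malat1 included. That fit had no batch term. With the batch as a block Malat1 passed in OTV:Malat1 against saline and against Malat1 ASO. Of the 8814 genes tested, 0% had an adjusted p under 0.05 in each of the 6 comparisons by edgeR's quasi-likelihood test, and of the other 8813 genes DESeq2 also called 0. At an unadjusted p under 0.05 edgeR held 411 genes (4.66%, Malat1 among them) in OTV:Malat1 against saline, 350 (3.97%, Malat1 among them) against anti-TfR:Malat1, 245 (2.78%) in anti-TfR:Malat1 against saline and 206 (2.34%) in Malat1 ASO against saline. For genes other than Malat1, DESeq2 held 216, 187, 139 and 105. Single mice moved the edgeR numbers of such genes: 267 were left for OTV:Malat1 against saline without OTV:Malat1 replicate 2, 563 against anti-TfR:Malat1 without OTV:Malat1 replicate 3, 373 for anti-TfR:Malat1 against saline without saline replicate 4, and 378 for Malat1 ASO against saline without Malat1 ASO replicate 1. The adjusted test called 0 of them each time. The genes below are therefore given with their values only.

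Of the genes with the smallest unadjusted p for higher levels in OTV:Malat1 than in saline, Stard7, a carrier of phosphatidylcholine to mitochondria, had 21.6, 17.1, 18.8 and 24.0 CPM in the saline mice and 71.5, 32.6 and 51.7 in the OTV:Malat1 mice. The groups did not overlap, and the log2 change was 1.30 (unadjusted p = 5.30e-04), or 0.74 with prediction scores of 0.8 or more. The means of Sept4 were 33.8 CPM in saline and 72.6 in OTV:Malat1, but its level in oligodendrocytes was 732 CPM, and its log2 change of 1.11 was 0.52 without OTV:Malat1 replicate 2, the mouse whose microglia held most oligodendrocyte RNA. Ahi1, a gene of the primary cilium with 1044 CPM in neurons, had means of 93.9 and 157 CPM. Mllt11 and Cend1 completed the 5, with log2 changes of 0.74 and 1.29, and Cend1 was at 0.60 without OTV:Malat1 replicate 2. The part of RNA from other cells in these values was not tested.

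Of the genes with lower levels in OTV:Malat1 than in saline, Senp3, a SUMO protease of the nucleolus, had 43.1, 30.3, 43.8 and 37.3 CPM in the saline mice and 17.9, 20.4 and 9.69 in the OTV:Malat1 mice. The groups did not overlap, with a log2 change of -1.23 (unadjusted p = 8.82e-04). Med12, a subunit of the Mediator complex, had means of 25.2 and 6.69 CPM and a log2 change of -2.04. The OTV:Malat1 mice had 391500, 490423 and 309626 microglial UMIs in all, so their levels of Senp3 and Med12 rest on few UMIs per mouse. Arntl, which encodes the clock protein BMAL1, had means of 55.0 and 31.5 CPM and a log2 change of -0.88, which was -0.37 with nuclei of 1000 or more UMIs and -0.51 with prediction scores of 0.8 or more. Pcbd2 did not keep its sign under those scores. Pcbd2 and Arhgap21, the latter a GTPase activator at the Golgi, had log2 changes of -0.81 and -0.86. All 10 of these genes had an adjusted p of 0.966 in edgeR.

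Against anti-TfR:Malat1, Gsap, the gamma-secretase activating protein, was the gene with the smallest p of those lower in OTV:Malat1. It had 217 to 249 CPM in the anti-TfR:Malat1 mice and 191.6, 163.1 and 145.3 in the OTV:Malat1 mice, without overlap, and a log2 change of -0.53 (unadjusted p = 2.89e-04). It stood at 218 CPM in microglia, 157 in perivascular macrophages, 131 in astrocytes and 10.4 in neurons. The other 4 were Slc9a7, Cwf19l2, Slc16a7 and Arhgap21, with log2 changes of -0.85, -0.51, -0.48 and -0.85. The 5 on the other side were Ccdc174, Mllt11, Pcp4, Josd2 and Mobp, with log2 changes of 0.72, 0.73, 0.81, 1.02 and 0.88. Mobp is a myelin gene that stood at 1086 CPM in oligodendrocytes, where Josd2 stood at 149 CPM against 32.0 in microglia. Without OTV:Malat1 replicate 2 it was at 0.57, and Pcp4, a calmodulin regulator, at 0.42. All 10 had an adjusted p of 0.961 in edgeR.

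For anti-TfR:Malat1 against saline the 5 genes on the higher side were Pabpn1, Adcy2, Mrpl1, Ahi1 and Nsun3, and the 5 on the lower side were Diablo, Strn4, Cdc5l, Slc31a1 and Dcaf12. Pabpn1, the nuclear poly(A)-binding protein, had means of 86.7 CPM in saline and 134 in anti-TfR:Malat1 and a log2 change of 0.61 (unadjusted p = 3.26e-04). Adcy2, an adenylyl cyclase, had 134 UMIs in all microglia and stood at 15.9 CPM there, 378.5 in neurons and 542 in astrocytes, and the part of RNA from those cells was not tested. Diablo, an inhibitor of apoptosis inhibitors, had means of 19.6 and 7.33 CPM, the latter a level of few UMIs per mouse. For Malat1 ASO against saline the genes were Tenm1, Tmem178b, Nsun3, 2610035D17Rik and Inpp5b on the higher side, with log2 changes of 0.52 to 1.06, and Pdpr, Pced1b, Lsm4, Ttc9 and Aagab on the lower side, with log2 changes of -1.08 to -0.52. Without Malat1 ASO replicate 1 the changes were 0.51 to 1.32 and -0.97 to -0.48. Tenm1 stood at 562 CPM in neurons against 37.0 in microglia. Tmem178b stood at 1475 CPM in oligodendrocytes and 710 in neurons against 39.6 in microglia, and 2610035D17Rik at 409.5 in oligodendrocytes against 121. Without Malat1 ASO replicate 4, whose microglia held most RNA of the neuronal markers, the log2 changes of Tenm1 and Tmem178b were 0.82 and 0.78. With doublets kept Tmem178b was at 0.51, and with prediction scores of 0.8 or more Tenm1 turned to -0.11. The part of RNA from other cells was not tested. With all mice the adjusted p rounded to 1.00 in edgeR for each of these 20.

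Identity genes of resting microglia were read first among the lists. The label Microglia rests on expression, so nuclei that had lost such genes could have lost the label. The values below therefore cover only nuclei that kept it and cannot show that identity was unchanged. The median log2 change of all genes tested ran from -0.00245 to 0.00115 over the 4 comparisons in which the lists were counted. Csf1r had 839.5, 745.3, 807.3 and 792.0 CPM in saline and 740.7, 701.4 and 768.7 in OTV:Malat1, groups that overlapped, and a log2 change of -0.15 (SE 0.11; adjusted p = 0.966 in edgeR). Cx3cr1 averaged 1065 ± 108 CPM (SD, n = 4) in saline against 1013 ± 66.7 (SD, n = 3) in OTV:Malat1, with a log2 change of -0.11 (SE 0.10). P2ry12 averaged 1245 ± 182 CPM (SD, n = 4) in saline, 1300 ± 221 (SD, n = 6) after anti-TfR:Malat1 and 1379 ± 108 (SD, n = 3) after OTV:Malat1. Of the 20 homeostatic genes listed, 20 were tested and 0 passed the threshold, with 8 above 0 and a median log2 change of -0.06 in OTV:Malat1 against saline. Their summed level was 14540 to 15170 CPM in saline and 14140 to 15370 in OTV:Malat1. Il6ra, the interleukin-6 receptor, was the only one of the 20 with an unadjusted p under 0.05 in edgeR, at 401 CPM in saline and 308 in OTV:Malat1. Of all genes tested, 4.66% had such a p in this comparison.

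**Figure D4:**
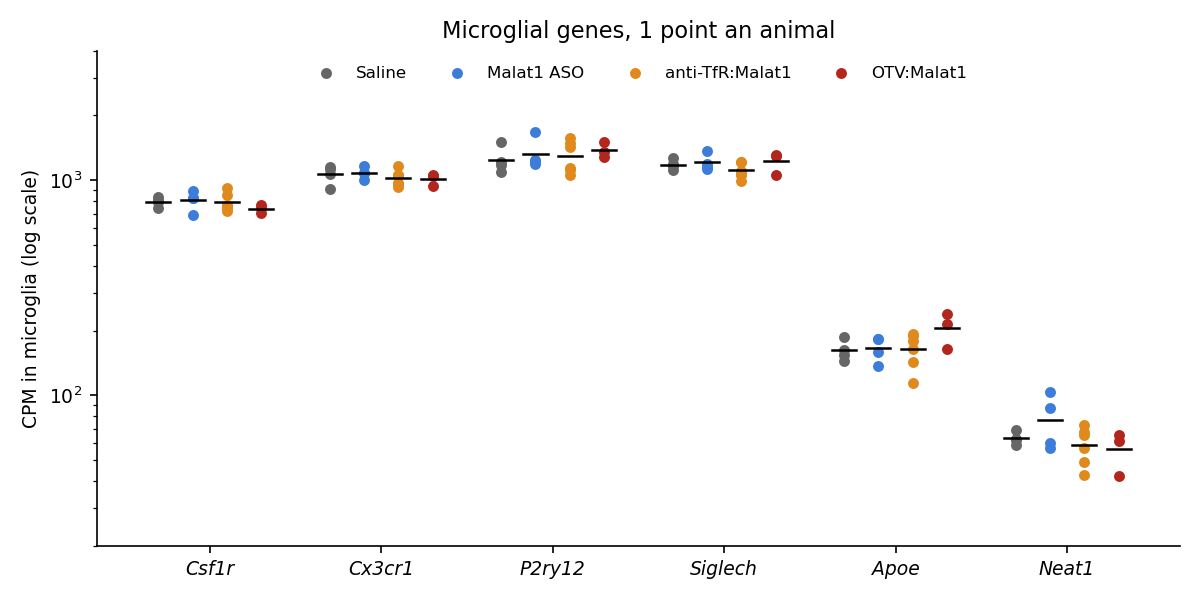
Levels of microglial genes in CPM, on a log scale; each point is a mouse, coloured by group, and black lines are group means. The groups overlap for the 3 marker genes; Csf1r had 701.4 to 768.7 CPM in OTV:Malat1 and 745.3 to 839.5 in saline.

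The 12 tested transcription factors of microglia, led by Mef2a, Mef2c and Ikzf1, had a median log2 change of -0.002 in OTV:Malat1 against saline. Of TGF-beta signalling, which keeps microglia in their resting state, 11 genes were tested, 3 lay above 0, and the median was -0.03. Its receptor Tgfbr1 stood at 2637 CPM in saline and 2540 in OTV:Malat1, and Smad2, which carries the signal to the nucleus, at 133 and 104.

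Activated microglia raise a set of lipid and lysosomal genes. Of 27 such genes listed, 26 were in the table and 13 were tested, and 0 passed the threshold in any of the 4 comparisons. In OTV:Malat1 against saline 9 of the 13 lay above 0, with a median log2 change of 0.10. The 26 genes summed to 1499, 2025, 1998 and 1309 CPM in the saline mice and to 1837, 2614 and 1612 in the OTV:Malat1 mice. The highest was OTV:Malat1 replicate 2, whose microglia also held most oligodendrocyte RNA, and the part of that RNA was not tested. Apoe, the lipid carrier that rises in such cells, had 163.3, 187.0, 154.4 and 144.0 CPM in saline and 214.6, 238.6 and 164.7 in OTV:Malat1, with the lowest OTV:Malat1 mouse inside the saline range. Its log2 change was 0.30 (unadjusted p = 0.0848). Cd9, a tetraspanin, averaged 143 ± 52.5 CPM (SD, n = 4) in saline against 227 ± 81.5 (SD, n = 3) in OTV:Malat1. Fth1, the ferritin heavy chain, averaged 480 ± 165 CPM (SD, n = 4) and 620 ± 300 (SD, n = 3). The other 13 had too few UMIs to be tested.

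Oligonucleotides can be read by innate sensors, so these were listed too. Of 24 nucleic acid sensors and Toll-like receptor adaptors 16 were tested, and in OTV:Malat1 against saline 9 lay above 0 with a median log2 change of 0.0042. Unc93b1, which escorts the endosomal Toll-like receptors, stood at 772 CPM in saline and 732 in OTV:Malat1, and Aim2, a sensor of cytosolic DNA, at 325 and 340. Ifih1, a sensor of double-stranded RNA, stood at 18.9 and 34.9 CPM and was the only one of the 16 with an unadjusted p under 0.05 in edgeR. Of all genes tested, 4.66% had such a p in this comparison. Of 23 interferon response genes 6 were tested, 1 lay above 0 and the median was -0.14; Trim30a and Parp14 stood at 140 and 77.8 CPM in saline and 134 and 79.8 in OTV:Malat1. Of 22 inflammatory genes 12 were tested, with 5 above 0 and a median of -0.05, and Nlrp3, the inflammasome sensor, stood at 94.6 and 121 CPM. No member of these lists passed the threshold in any of the 4 comparisons.

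Both conjugates carry antibody-derived parts, and Fc receptors and their signalling were read for that reason. Of 10 genes listed 6 were tested, 2 lay above 0 in OTV:Malat1 against saline, and the median log2 change was -0.03. Fcer1g, the shared signalling chain, stood at 115 CPM in saline, 92.4 after anti-TfR:Malat1 and 126 after OTV:Malat1. Fcgr3, an activating receptor for IgG, stood at 92.8, 103 and 76.9 CPM, and its log2 change in OTV:Malat1 against anti-TfR:Malat1 was -0.44 (unadjusted p = 0.0376 in edgeR). It was the only one of the 6 with such a p under 0.05 there, against 3.97% of all genes tested, and 0 of the 6 passed the threshold. Syk, the kinase below these receptors, stood at 199.4 CPM in saline and 199.5 in OTV:Malat1. The 8 tested complement genes had a median of -0.03 with 4 above 0, and the 8 tested genes of antigen presentation a median of 0.14 with 5 above 0. Of phagocytosis and lipid handling 12 were tested, 4 lay above 0 and the median was -0.11; Mertk, which binds apoptotic cells, stood at 2122 CPM in saline and 1920 in OTV:Malat1.

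Uptake through TfR leads to endosomes and lysosomes. Tfrc, the gene of mouse TfR, had 80 UMIs in all microglia and 3 to 11 per mouse, too few for the test, and averaged 9.21 ± 3.68 CPM (SD, n = 4) in saline against 9.98 ± 5.40 (SD, n = 3) in OTV:Malat1. At this depth no difference in Tfrc could be read, and whether its count includes the human sequence of the knock-in is unknown here. Of the 10 tested genes of the transferrin receptor cycle and iron, 8 lay above 0 in OTV:Malat1 against saline, with a median log2 change of 0.22, and 8 against anti-TfR:Malat1, with a median of 0.31. The 16 genes of that list summed to 1061 to 1437 CPM in saline and to 1253, 1379 and 1970 in OTV:Malat1. Only the highest OTV:Malat1 mouse lay above the saline range, and the part of RNA from other cells was not tested. Fbxl5, the iron-sensing part of a ubiquitin ligase, averaged 88.5 ± 7.93 CPM (SD, n = 4) in saline against 127 ± 16.1 (SD, n = 3) in OTV:Malat1. Trf, transferrin, stood at 167 and 225 CPM and is also made by oligodendrocytes, whose RNA was highest in OTV:Malat1 replicate 2. The exporter Slc40a1 stood at 145 and 154 CPM. Of 14 tested endocytosis genes 5 lay above 0 and the median was -0.06. Dnm2, the dynamin that pinches off vesicles, averaged 419 ± 18.7 CPM (SD, n = 4) in saline, 364 with Malat1 ASO, 366 with anti-TfR:Malat1 and 343 ± 16 (SD, n = 3) with OTV:Malat1, with a log2 change of -0.33 in OTV:Malat1 against saline (unadjusted p = 0.00439 in edgeR). It was the only one of the 14 with such a p under 0.05, against 4.66% of all genes tested, and 0 of the 14 passed the threshold. Of 20 tested lysosomal genes 9 lay above 0 and the median was -0.05, with Ctss at 664 CPM in saline and 626 in OTV:Malat1.

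Genes of RNase H and nuclear RNA decay had a median log2 change of 0.01 in OTV:Malat1 against saline, with 7 of 13 above 0. Rnaseh2a, a subunit of RNase H2 and not of RNase H1, stood at 17.7 CPM in saline and 7.93 in OTV:Malat1, the latter a level of few UMIs per mouse. Of 18 neighbours of Malat1 on chromosome 19, 8 were tested, with 4 above 0 and a median of 0.02. The nearest long noncoding RNA, Neat1, which builds paraspeckles and lies at chr19:5824708-5845478 on the minus strand, had 69.3, 61.9, 62.6 and 58.7 CPM in saline and 61.3, 65.3 and 42.0 in OTV:Malat1. The groups overlapped, the log2 change was -0.19 (SE 0.24), and its 542 UMIs over all microglia limit the precision. The 7 tested p53 targets had a median of -0.08 and the 6 tested immediate early genes one of -0.07, with 3 above 0 in each list. None of the 14 proliferation genes had enough UMIs for the test, and their sum was 48.0 to 75.5 CPM in saline and 54.9 to 75.5 in OTV:Malat1.

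**Figure D5:**
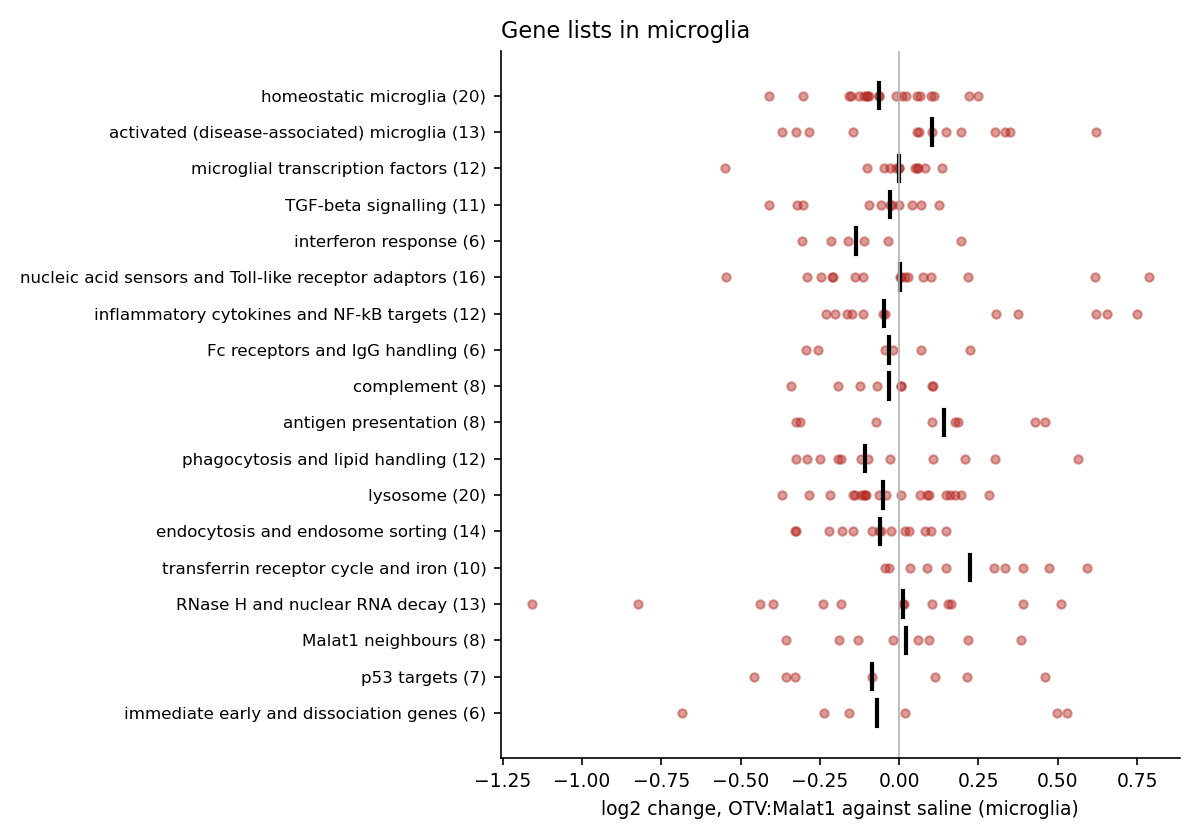
Log2 changes of the tested members of each gene list in microglia, OTV:Malat1 against saline, with 1 point a gene, the median as a black bar and the number tested in brackets. The medians lie between -0.14 (interferon response) and 0.22 (transferrin receptor cycle and iron), and 0 members passed the threshold.

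Microglia as a share of the nuclei not called doublets were 3.90%, 4.78%, 3.56% and 2.91% in saline, 4.38%, 4.04%, 3.58% and 3.33% with Malat1 ASO, 2.37% to 4.73% (median 3.10%) with anti-TfR:Malat1, and 3.02%, 3.05% and 2.69% with OTV:Malat1. The saline and anti-TfR:Malat1 ranges overlapped with each other and with those of the other groups. Every OTV:Malat1 mouse lay below every Malat1 ASO mouse, and that difference was not tested. The mean was 3.79% ± 0.78 (SD, n = 4) in saline against 2.92% ± 0.20 (SD, n = 3) in OTV:Malat1, a difference of -0.867 percentage points (exact permutation p = 0.171, adjusted p = 0.590 over 4 comparisons). Without saline replicate 2 the difference was -0.536 points. Within batches 2, 3 and 4 it was -1.76, -0.51 and -0.22 points. For Malat1 ASO the difference was 0.0436 points (exact permutation p = 0.886), and -0.139 without its replicate 1. For anti-TfR:Malat1 the difference from saline was -0.541 points (exact permutation p = 0.295). Within batches 1 to 4 it was -0.795, -1.88, -0.731 and 0.999 points, which did not share a sign. A share of sorted and captured nuclei is no count of cells in the tissue: fewer microglia and more nuclei of other types cannot be told apart.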

How the data were processed

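Nuclei were dounced from frozen tissue, sorted on DAPI and captured on the 10x platform, per the labels' protocols. The authors deposited whole-number UMI counts over 26131 genes and 284074 nuclei, and column sums equalled the deposited totals in every nucleus. The submitters' processing notes name mm10, Cell Ranger 6.0.1 and Seurat 4, with no role or order. The deposited metadata gave each nucleus a predicted label, a prediction score, a cluster, a doublet call and a batch; the sources used here give neither the label reference nor the doublet caller. A further 10 metadata columns were not used.

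UMIs of microglia were summed per mouse, filtered by filterByExpr, scaled by TMM and fitted over all 17 mice with edgeR 4.0.16 (glmQLFit, glmQLFTest; R 4.3.3), without a block. DESeq2 1.42.0 was an alternative. P-values were two-sided. Exact permutation tests, doubling the smaller tail, were run over mice in Python 3.11.15 (numpy 2.4.6, scipy 1.17.1). The scripts were tested on simulated data. Mice are separate samples, and the tests judged differences against the spread between mice. In the main fit, which had no batch term, that spread included any difference between batches.

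The microglia, the 19 gene lists and the tests were chosen with earlier results of these data known. Named were Malat1, Neat1, Tfrc and the 3 markers; genes past the threshold without overlap; where fewer than 5 passed in a direction, the 5 of smallest p; the 3 list members highest in saline; and the 10 leading genes of 100 CPM or more. List members with an unadjusted p under 0.05 were named after their values were seen. For 6 listed symbols no gene was found, and a few genes that the rule names are not reported here. Other alternatives were RLE scaling, no filter, Malat1 left out of library sizes, only the 2 groups compared, replicate and batch blocks, doublets kept, cluster 11 only, nuclei of 1000 or more UMIs, prediction scores of 0.8 or more, other thinning depths and percentiles, and each mouse left out.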

Additional observations from a re-analysis of the deposited data

Results flagged for a closer look

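In microglia of Malat1 ASO replicate 1, Xist was at 0 CPM, while the other 3 mice of that group had 1874 to 2181 CPM. P2ry12 was at 1669 CPM in Malat1 ASO replicate 3, against 1192 to 1237 in the other 3 mice. Both stood apart by the ratio of their gap to the range of the group. In this way 39 sets of values were tested, each 1 measure in 1 group, and chance would mark about 1 in 20. The OTV:Malat1 group, with 3 mice, was too small for this rule. Xist was also low over all nuclei of that Malat1 ASO library, as given above.

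Malat1 in microglia differed from that in other nuclei of the same mice by an amount that differed between groups. For microglia minus oligodendrocytes the change on the log2(CPM + 1) scale was 0.3891 in anti-TfR:Malat1 against saline (exact permutation p = 0.00952, adjusted p = 0.0429) and, for OTV:Malat1 against anti-TfR:Malat1, 1.749 (exact permutation p = 0.0238, adjusted p = 0.0536). For microglia minus astrocytes it was 0.4561 (exact permutation p = 0.00952, adjusted p = 0.0429) and 0.4777 (exact permutation p = 0.0238, adjusted p = 0.0536). In all 4, every mouse of the first group lay above every mouse of the second.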

How the results depend on the processing

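Malat1 in OTV:Malat1 kept its direction under every alternative run, and its adjusted p moved across 0.05 with the processing; the cause was not tested. Against saline and Malat1 ASO the log2 change was -0.64 and -0.66 with no filter (adjusted p 7.58e-11 and 1.04e-11), -0.58 and -0.59 with the batch block (9.82e-04 and 4.89e-04), -0.71 and -0.71 with doublets kept (0.0462 and 0.0488), -0.65 and -0.67 with nuclei of 1000 or more UMIs (0.0265 and 0.0144), and -0.59 and -0.62 with prediction scores of 0.8 or more (0.0111 and 0.00606). Against anti-TfR:Malat1 it was -0.44 with no filter (1.60e-04), and the exact permutation gave -0.39 with an unadjusted p of 0.0238 (0.114 adjusted over 6 comparisons). Leaving out 1 mouse gave -0.72 to -0.50 against saline, -0.70 to -0.56 against Malat1 ASO and -0.49 to -0.37 against anti-TfR:Malat1; the adjusted p ran from 0.00326 to 0.9996, from 0.0328 to 0.977 and from 0.796 to 1.0 in that order, and was under 0.05 only without saline replicate 4 against saline and without Malat1 ASO replicate 4 against Malat1 ASO.

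With the replicate number as a block, Malat1 was at -0.66 in OTV:Malat1 against saline (adjusted p 0.0128) and at -0.68 against Malat1 ASO (0.00900), and 0 other genes were called. The numbers do not pair the mice: same-numbered mice had correlations of -0.329 to 0.425 (median 0.068). Mice of one batch had a median of 0.236, against -0.074 for mice of different batches. The block changed no other call.

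Malat1 in Malat1 ASO against saline turned sign with doublets kept (-0.0027), and ranged from -0.10 to 0.12 with 1 mouse left out. In anti-TfR:Malat1 leaving out 1 mouse gave -0.29 to -0.08 against saline and -0.28 to -0.14 against Malat1 ASO. The share of microglia in Malat1 ASO minus saline was -0.0276 with doublets kept, -0.170 with nuclei of 1000 or more UMIs, and -0.247 to 0.375 points with 1 mouse left out. Genes other than Malat1 were called only without the filter. They were 3 in Malat1 ASO against saline (Gm47283 and Tsix, both at 0 UMIs in Malat1 ASO replicate 1, and Nrxn3) and, between OTV:Malat1 and anti-TfR:Malat1, 2, of which Cryab had 101 of 141 OTV:Malat1 UMIs from 1 mouse. Between OTV:Malat1 and Malat1 ASO they were 12, of which 6 were higher in OTV:Malat1, Ubb with 372 of 586 UMIs from 1 mouse among them, and 6 lower.

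The low share in OTV:Malat1 minus anti-TfR:Malat1 was 27.9 with labels moved within batches (exact p 0.111, the smallest possible there) and 21.9 to 30.7 with 1 mouse left out; with 2 OTV:Malat1 mice the exact p cannot go below 0.0714. From saline, left-out mice gave 27.0 to 51.4 for OTV:Malat1, 2.62 to 18.9 for anti-TfR:Malat1 and -5.22 to 5.63 for Malat1 ASO. Leaving out a saline mouse also reset the limit; with it kept at 16, a choice added after seeing the data, these were 37.3, 11.2 (exact permutation p 0.0238) and 2.84 without saline replicate 4, and the last was -5.62 without saline replicate 1. With labels moved within batches, microglia minus oligodendrocytes changed by 0.378 (exact p 0.0556) and 1.74 (0.111), and microglia minus astrocytes by 0.446 (0.0556) and 0.501 (0.111), the first of each pair for anti-TfR:Malat1 from saline, the second for OTV:Malat1 from anti-TfR:Malat1; these are the smallest p that moves within batches allow, so none could pass the threshold. Leaving out 1 mouse gave 1.72 to 1.79 and 0.455 to 0.502 for the latter. Against perivascular macrophages the change in OTV:Malat1 was -0.0187 to 0.172 against saline and -0.0906 to 0.101 against anti-TfR:Malat1; with nuclei of 1000 or more UMIs it was not computed, for lack of nuclei.

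Of single genes, some turned sign, none of them called. Neat1 was at 0.11 and 0.31 with doublets kept and at 0.23 and 0.42 with nuclei of 1000 or more UMIs, against saline and anti-TfR:Malat1, and -0.17 to 0.077 against the latter with 1 mouse left out. Against anti-TfR:Malat1, P2ry12 was at -0.043 with nuclei of 1000 or more UMIs, -0.074 with scores of 0.8 or more and -0.019 without OTV:Malat1 replicate 3, and Cx3cr1 was at 0.074 with those scores. Those scores also gave -0.11 for Tenm1 in Malat1 ASO and 0.025 for Pcbd2 in OTV:Malat1, both against saline. Other changes moved by over 1.5 times without turning. With doublets kept, Sept4 and Arhgap21 were at 0.66 and -0.51 against saline and Mobp at 0.40 against anti-TfR:Malat1; with nuclei of 1000 or more UMIs, Tenm1, Mrpl1 and Arntl were at 0.63, 1.02 and -0.37, and Mllt11 and Slc16a7 at 0.48 and -0.85 against anti-TfR:Malat1; with scores of 0.8 or more, Aagab was at -0.33. With 3 to 6 mice a group and about 1000 UMIs a nucleus, low genes could not be tested.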
